A study of Mus musculus with 48 samples.

Results

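The change of polysome loading under N6L was described as the interaction of treatment and fraction, that is the log2 ratio of polysomal to cytoplasmic mRNA in each N6L-treated culture compared with the same ratio in each non-treated (NT) culture. All 48 deposited samples of the 48 in the series entered it, as 12 libraries from 6 cultures, and 13889 of the 50600 genes listed had enough counts to be tested. The log2 difference between the treatments is called the translational index (TI). A TI above 0 means that the share of a gene's cytoplasmic mRNA found in polysomes, set against all other mRNAs of those libraries, was greater under N6L, and a TI below 0 that it was smaller.

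Polysomes are mRNAs that carry several ribosomes, and they sediment faster in a sucrose gradient than free mRNA or single ribosomes. The polysome-to-cytoplasm ratio of an mRNA is therefore used as a measure of how well it is recruited for translation. Nucleolin (gene Ncl) is an abundant nucleolar RNA-binding protein with roles in ribosome production and in mRNA translation, and N6L is a synthetic antagonist of it. The mRNAs of ribosomal proteins and of several translation factors begin with a 5′ terminal oligopyrimidine (5′TOP) tract, through which the mTOR pathway and Larp1 control their loading.

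The cells were mPDAC, a mouse pancreatic ductal adenocarcinoma line from a FVB/N x C57BL6 background, labelled with an age of 8-week-old. A dish was either left untreated (NT cultures 1, 2 and 4) or exposed to 50 µM N6L for 48 h (N6L cultures 1, 2 and 3), and emetine was added to all dishes before lysis. Nuclei and mitochondria were spun down, RNA was taken from part of the cytoplasmic lysate, and the rest was run on a gradient whose polysomal fractions were pooled. A single cell line was used, and the labels do not say whether the 3 cultures of a treatment were grown independently, so p-values cover the spread between these cultures only.

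Libraries held between 19519911 and 44972333 counts after the 4 technical replicates of each had been summed. Markers of ductal epithelium (7 of 8 over 1 CPM) summed to 7111 to 9866 CPM per library (CPM, counts scaled to library size), while 4 endocrine markers were at 0 and fibroblast, endothelial and leukocyte markers summed to at most 1.27, 1.13 and 2.45 CPM. The acinar list summed to 29.8 to 76.0 CPM, with 1 of its 5 genes over 1 CPM. In the cytoplasmic library of N6L culture 2, 3 technical replicates carry the number 1 in a second label, and they were kept with culture 2 as titled. Since every value is a level within its own library, a fall in polysomal mRNA shared by all genes cannot be seen in these data.

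Across genes, the polysome-to-cytoplasm ratios as measured were spread more widely in the N6L cultures. The standard deviation of the log2 ratio over the 13889 genes was 0.506, 0.497 and 0.477 in NT cultures 1, 2 and 4 and 0.532, 0.687 and 1.04 in N6L cultures 1, 2 and 3, which gave means of 0.494 ± 0.0148 and 0.751 ± 0.258 (SD over 3 cultures each, p = 0.1 in an exact permutation test, two-sided, and 0.1 is the lowest p possible with 3 cultures a treatment). N6L culture 3 stood apart, with a log2 ratio beyond 1 in either direction for 34.3% of genes, against 4.41% to 12.1% in the other 5 cultures. For the length groups, the slope of the ratio and the class medians of the TI, the value without it is also given where leaving it out moved a printed value by over 1.5 times.

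In edgeR's quasi-likelihood test over all 12 libraries with Benjamini-Hochberg adjustment (FDR), 0 of the 13889 genes passed an FDR of 0.05 for the TI (0%, smallest FDR 0.555). For 1074 genes (7.73%) the unadjusted p was under 0.05. When both libraries of a lysate were paired by a term for the culture, 2996 genes (21.6%) had an unadjusted p under 0.05 and again 0 passed the FDR limit (0%, smallest FDR 0.196). DESeq2 gave 0 genes past the limit and 1233 under an unadjusted p of 0.05. No single gene described here was therefore called as changed, and the values that follow describe size, direction and overlap between the cultures. The SE, p and FDR printed below for single genes come from the fit without the term for the culture, so they leave the pairing out. The quartiles of the log2 TI over genes were -0.33 and 0.33. The 3 N6L ratios lay all above the 3 NT ratios for 2124 genes (15.3%) and all below them for 1999 genes (14.4%), together 29.7%.

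The TI was ordered by transcript length. When the 12111 protein-coding genes were divided into 10 groups of equal size by the length of their annotated transcript, the median log2 TI was 0.46 in the shortest group (276 to 1204 nt) and -0.56 in the longest (6369 nt and more), and it declined at every step between them. Among the 1211 shortest genes, 647 (53.4%) had all N6L ratios above all NT ratios and 13 (1.07%) had them all below. Among the 1212 longest, 15 (1.24%) lay above and 615 (50.7%) below. Over all protein-coding genes these shares were 15.5% and 15.6%. Without N6L culture 3 the medians of the shortest and longest group were 0.31 and -0.38, and without N6L culture 1 they were 0.56 and -0.73.

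Each culture showed the order, at a different steepness. In the shortest group the median log2 ratio was 0.28, 0.27 and 0.29 in NT cultures 1, 2 and 4 and 0.50, 0.66 and 0.98 in N6L cultures 1, 2 and 3. In the longest group it was -0.32, -0.30 and -0.24 in the NT cultures and -0.56, -0.82 and -1.36 in the N6L cultures. In both of these groups the 3 N6L medians lay outside the range of the NT medians, and the 3 NT medians lay close together. In the group from 2513 to 2947 nt all 6 medians were between -0.00456 and 0.0825.

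**Figure D1:**
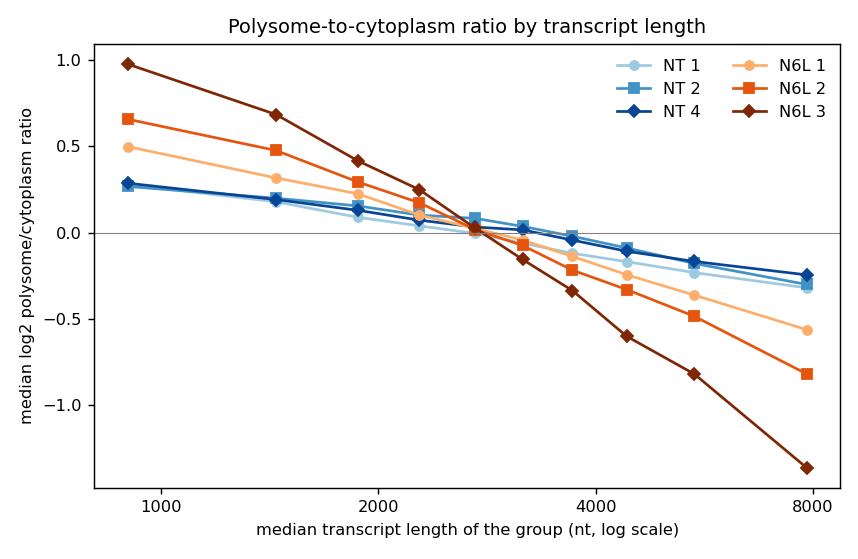
Median log2 polysome-to-cytoplasm ratio (vertical axis) of protein-coding genes in 10 groups by transcript length (horizontal axis, median length of each group in nucleotides, log scale), with 1 line for each of the 3 NT (blue) and 3 N6L (orange to brown) cultures. The 6 lines cross in the group from 2513 to 2947 nt and fan out to 0.98 and -1.36 in N6L culture 3, while the NT lines stay between 0.29 and -0.32.

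Over all 12111 protein-coding genes, the slope of the log2 ratio per doubling of transcript length was -0.18, -0.18 and -0.16 in NT cultures 1, 2 and 4 and -0.31, -0.43 and -0.67 in N6L cultures 1, 2 and 3. The means were -0.18 ± 0.01 and -0.47 ± 0.18 (SD, n = 3 each), a difference of -0.29 (p = 0.1 in the exact permutation test, the lowest possible, and 0.175 after Benjamini-Hochberg adjustment over 7 slopes). All N6L slopes were steeper than all NT slopes, and the difference was -0.19 without N6L culture 3. Transcript length accounted for 12.1% to 16.4% of the variance of the ratio across genes in the NT cultures and for 37.3% to 40.7% in the N6L cultures, and for 34.5% of the variance of the TI. These shares are across genes, which are not independent replicates.

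The ratio was then taken apart into its fractions. In the cytoplasmic libraries the slope of the log2 CPM (as the deviation from the gene's mean over the 12 libraries) was 0.06, 0.07 and -0.14 in NT cultures 1, 2 and 4 and 0.33, 0.35 and 0.30 in N6L cultures 1, 2 and 3, without overlap between treatments (p = 0.1, exact permutation test, 0.175 adjusted). In the polysomal libraries it was -0.12, -0.11 and -0.31 in the NT cultures and 0.02, -0.08 and -0.37 in the N6L cultures, which overlapped (p = 0.8, exact permutation test, also 0.8 adjusted). From the shortest to the longest group, the median N6L-minus-NT log2 difference ran from -0.66 to 0.52 in the cytoplasm and from -0.20 to -0.04 in the polysomes. The order by length was thus a larger difference in the cytoplasmic than in the polysomal libraries, and short mRNAs had a higher TI beside a lower relative level in both fractions. The difference between these slopes of the fractions is the slope of the ratio already given. Counts of the mitochondrial genome made up 0.454% to 0.966% of the NT cytoplasmic libraries and 0.121% to 0.242% of the N6L ones, and their part in the order by length was not tested.

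**Figure D2:**
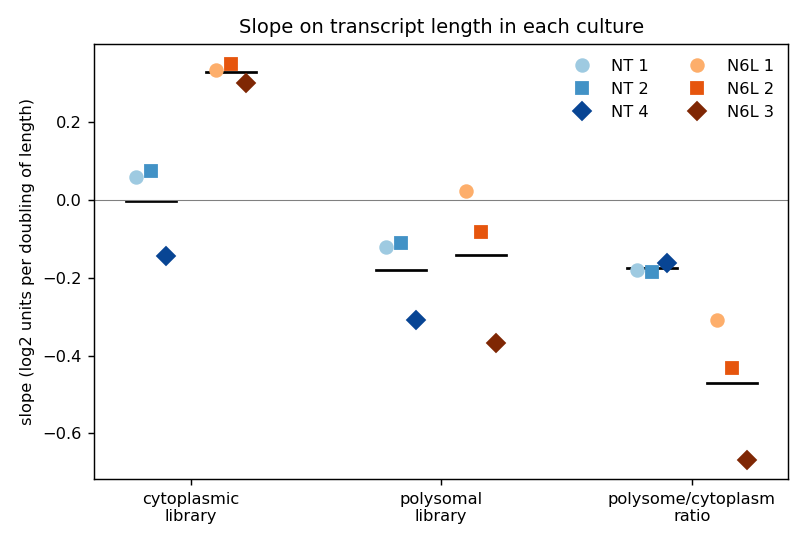
Slope on log2 transcript length (vertical axis, log2 units per doubling of length) of the cytoplasmic level, the polysomal level and their ratio in each culture, with NT cultures in blue, N6L cultures in orange to brown and black bars for the mean of 3 cultures. The cytoplasmic slopes of N6L cultures (0.30 to 0.35) lie above those of NT cultures (-0.14 to 0.07), the polysomal slopes overlap, and the ratio slopes do not.

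When the length of the coding sequence (CDS), both untranslated regions and the GC content were fitted together over 11684 genes, the slope per doubling of CDS length was -0.15, -0.15 and -0.12 in NT cultures 1, 2 and 4 and -0.24, -0.36 and -0.57 in N6L cultures 1, 2 and 3 (difference -0.25, exact permutation p = 0.1, 0.175 adjusted). The slopes on 3′UTR length were near 0 in both treatments, with means of -0.01 ± 0.02 and -0.03 ± 0.02 (SD, n = 3 each, exact permutation p = 0.3, 0.35 adjusted). Those on 5′UTR length were -0.02 ± 0.00119 and -0.03 ± 0.01 (n = 3 each, exact permutation p = 0.1, 0.175 adjusted). Per 10 points of GC content the log2 ratio was higher by 0.27 ± 0.13 in NT and by 0.60 ± 0.39 in N6L cultures, with values that overlapped (SD, n = 3 each, exact permutation p = 0.3, 0.35 adjusted). Of the 4 features fitted together, CDS length had the steepest slopes on length, and its slope differed most between the treatments among the length terms.

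GC content nevertheless ordered the TI. The median log2 TI was -0.26 in the lowest of 10 equal groups of protein-coding genes by GC content and 0.35 in the highest. When each library was corrected for length by an offset (a smooth curve of the library's level on log2 transcript length), these medians were -0.15 and 0.25. N6L culture 3 had median ratios of -1.19 and 0.77 in these groups, against -0.45 and 0.16 in N6L culture 1 and -0.59 and 0.22 in NT culture 2. The cultures of both treatments therefore differed among themselves in the order by GC content.

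The genes with the lowest TI by the naming rule (at least 10 CPM and no overlap between treatments) were all long. Syne2 (ENSMUSG00000063450, chromosome 12 from 75818134 to 76110926, GRCm38) encodes a giant protein of the nuclear envelope that ties the nucleus to the cytoskeleton, on a transcript of 21690 nt. Its log2 ratio was -0.70, -0.63 and -0.39 in NT cultures 1, 2 and 4 and -1.25, -2.58 and -2.92 in N6L cultures 1, 2 and 3, so all N6L values lay below all NT values. In CPM, its cytoplasmic level was 45.5, 46.5 and 34.6 in NT and 70.7, 88.8 and 92.3 in N6L cultures, and its polysomal level was 27.9, 29.97 and 26.5 against 29.6, 14.8 and 12.1. Its fitted TI was -1.57 on the log2 scale (SE 0.37, FDR 0.555 in edgeR's test, p 0.00084 before adjustment), and it was -2.16 without N6L culture 1, the only left-out culture with which a gene passed the limit (FDR 0.0251).

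The other 7 followed the same layout. Dst, a cytoskeletal linker on a transcript of 23201 nt, had log2 ratios of -0.69, -1.03 and -0.32 in the NT and -1.16, -2.44 and -3.38 in the N6L cultures. Dsp, the desmosome protein desmoplakin, had -0.42, -0.57 and -0.16 against -1.08, -2.05 and -2.78. In both genes N6L culture 1 was closest to the NT cultures and N6L culture 3 farthest. Atm, the kinase that responds to DNA double-strand breaks, had -0.34, -0.40 and 0.30 against -0.96, -1.87 and -2.83. Usp9x, a deubiquitinase, had -0.35, -0.46 and 0.12 against -1.01, -1.66 and -2.84. For these the cytoplasmic level was higher in all N6L cultures, at 18.3 to 21.6 CPM against 6.41 to 8.62 for Atm and at 50.3 to 65.8 CPM against 10.5 to 21.6 for Usp9x. Prrc2c had a log2 TI of -1.49, Dennd4c, an exchange factor for a Rab GTPase, one of -1.45, and Ccdc88c one of -1.44. The transcripts of these 8 genes were between 6313 and 23201 nt long.

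Among the 8 genes with the highest TI by the same rule, the annotated transcripts were 441 to 1831 nt long. Scand1 (ENSMUSG00000046229, chromosome 2 from 156311847 to 156312704, GRCm38), which encodes a small SCAN-domain protein on a transcript of 759 nt, had log2 ratios of -0.18, 0.79 and 0.37 in NT cultures 1, 2 and 4 and 1.57, 1.18 and 2.45 in N6L cultures 1, 2 and 3. Its cytoplasmic level was 97.8, 49.3 and 196 CPM in the NT and 14.7, 24.1 and 25.6 CPM in the N6L cultures, and its polysomal level was 86.3, 85.5 and 252 CPM against 43.8, 54.7 and 140 CPM. The N6L cultures were all lower than the NT cultures in the cytoplasm, whereas the polysomal levels overlapped. The fitted TI was 1.58 on the log2 scale (SE 0.75, FDR 0.555 in edgeR's test, p 0.0545 before adjustment) and 1.03 without N6L culture 3.

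H2afj, a histone H2A variant, had ratios of 0.53, 0.46 and 0.42 in the NT and 1.28, 1.37 and 1.94 in the N6L cultures, the tightest NT values of this group. Zfp771, a zinc-finger gene, had -0.25, 0.59 and 0.59 against 1.07, 1.19 and 1.97. Rps16-ps2 is a pseudogene of a ribosomal protein, with a TI of 1.24, and its reads cannot be told apart with certainty from those of Rps16. The unnamed genes Gm21887 (TI 1.53) and Gm10275 (TI 1.35) had mean levels of 15.5 and 16.2 CPM. Gm10275 is annotated as a transcribed processed pseudogene, and its reads may likewise be shared with another gene. Both mt-Nd4 (TI 1.23) and mt-Nd1 (TI 1.17), subunits of respiratory complex I, are encoded in mitochondria. The cytoplasmic level of mt-Nd1 was 3339, 1469 and 3613 CPM in the NT and 580.8, 420.9 and 225 CPM in the N6L cultures, and its log2 ratio was below -2 in all 6 cultures. Its higher TI lay beside a lower share of mitochondrial counts in the N6L cytoplasmic libraries, and the part of that share in it was not tested.

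**Figure D3:**
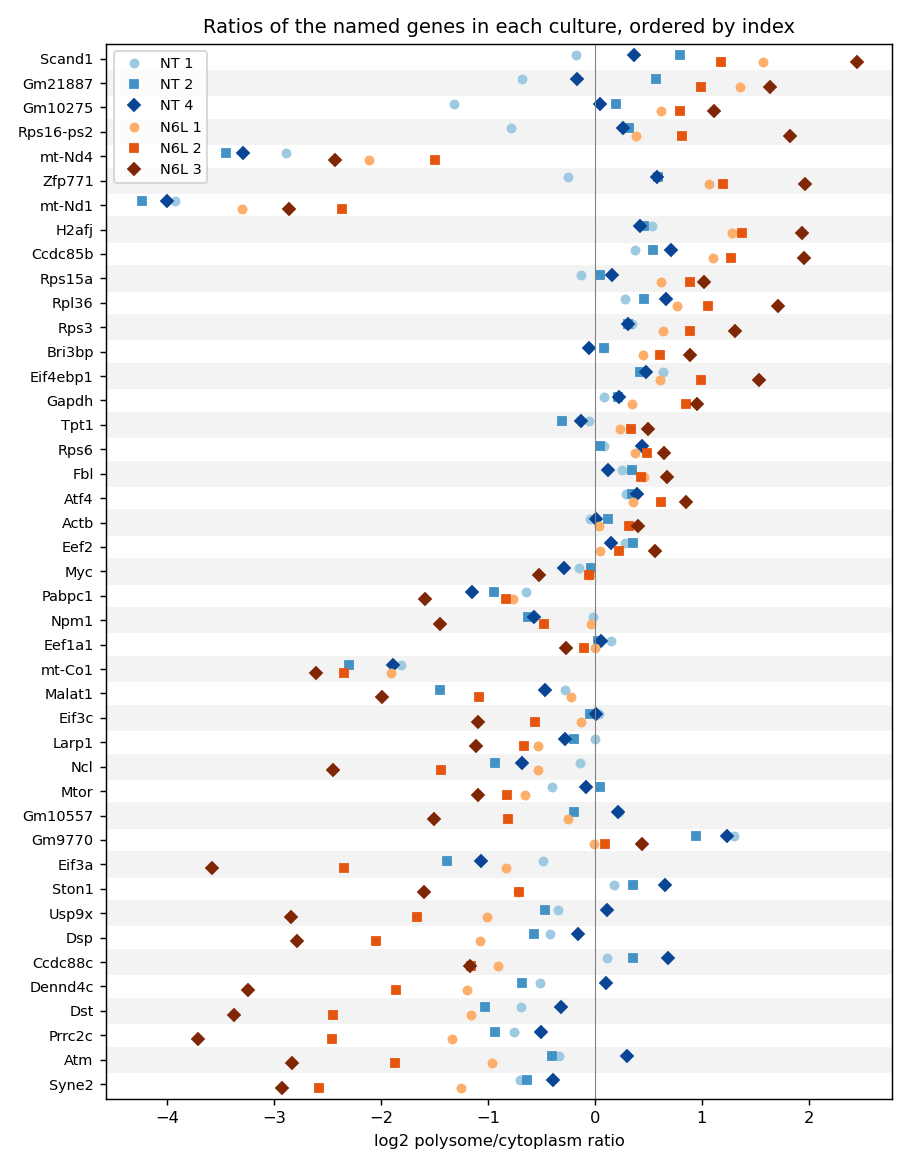
Log2 polysome-to-cytoplasm ratio (horizontal axis) of 43 named genes (vertical axis, highest TI at the top) in the 3 NT cultures (blue) and the 3 N6L cultures (orange to brown). At the top, for example in Scand1, all N6L points lie to the right of the NT points, at the bottom, for example in Syne2 with N6L culture 3 at -2.92, all lie to the left, and for Myc, Npm1 or Eef2 they overlap.

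With the length offsets, 0 genes again passed an FDR of 0.05 (0%, smallest FDR 0.755), 703 genes (5.06%) had an unadjusted p under 0.05, and 1821 genes (13.1%) did with a term for the culture. Ratios without overlap were found for 1471 genes above (10.6%) and 1222 below (8.8%). The standard deviation of the TI over genes was 0.490 as measured and 0.423 with the offsets, and a log2 TI above 0.5 was found for 1058 genes (7.62%) instead of 1879 (13.5%), and one below -0.5 for 1391 (10%) instead of 2075 (14.9%). The standard deviation of the TI was thus 13.8% smaller with the correction. That of the log2 ratio over genes was then 0.471, 0.466 and 0.451 in NT cultures 1, 2 and 4. In N6L cultures 1, 2 and 3 it was 0.433, 0.577 and 0.841, so N6L culture 1 lay below all NT cultures. The means were 0.463 ± 0.0102 and 0.617 ± 0.207 (SD over cultures, p = 0.4 in the exact permutation test).

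Among genes with at least 10 CPM and no overlap between treatments, the highest length-corrected TIs were those of Ccdc85b (1.26), Scand1 (1.17), Gm21887 (1.14), Rps15a (1.13) and Bri3bp (1.08). Ccdc85b had uncorrected log2 ratios of 0.38, 0.55 and 0.71 in the NT and 1.10, 1.27 and 1.95 in the N6L cultures. Rps15a, a protein of the small ribosomal subunit, had -0.13, 0.05 and 0.16 against 0.61, 0.89 and 1.02. For Ccdc85b, Rps15a and Bri3bp the annotated transcript (4715, 5179 and 6473 nt) was far longer than the coding sequence (606, 390 and 759 nt), and the correction rests on that transcript. The lowest under the same limits were those of Gm9770 (-1.29), Ston1 (-1.28), Gm10557 (-1.16), Atm (-1.10) and Dennd4c (-1.07). Of these, Gm9770 and Gm10557 are annotated as processed pseudogenes, whose reads may be shared with other genes. Ston1, an endocytic adaptor, had ratios of 0.18, 0.35 and 0.65 in the NT and -0.72, -0.71 and -1.60 in the N6L cultures, at a cytoplasmic level of 7.86 to 18.8 CPM in NT and 51.0 to 62.0 CPM in N6L cultures. Ccdc88c, which encodes a Dishevelled-binding protein, had 0.12, 0.35 and 0.68 against -0.91, -1.16 and -1.17, and was the gene among the 8 lowest whose N6L values were closest together.

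Genes were next grouped by function into 34 classes with 1824 tested members, chosen by gene symbol, and the highest and lowest members named are those with at least 10 CPM. Since 0 genes passed the FDR limit, 0 members of any class did, and classes are described by their median log2 TI beside the median of all genes, 0.01, and by the members without overlap beside the 15.3% above and 14.4% below over all genes (10.6% and 8.8% with the length offsets). In single cultures, the class median of the log2 ratio is given minus the median of all genes in that culture. As measured, 16 of the 34 medians were above that of all genes. With the length offsets 31 of the 34 medians stayed on the same side of the median of all genes and 23 came closer to it, and the median size of the class medians was 0.25 before and 0.17 after the offsets.

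**Figure D4:**
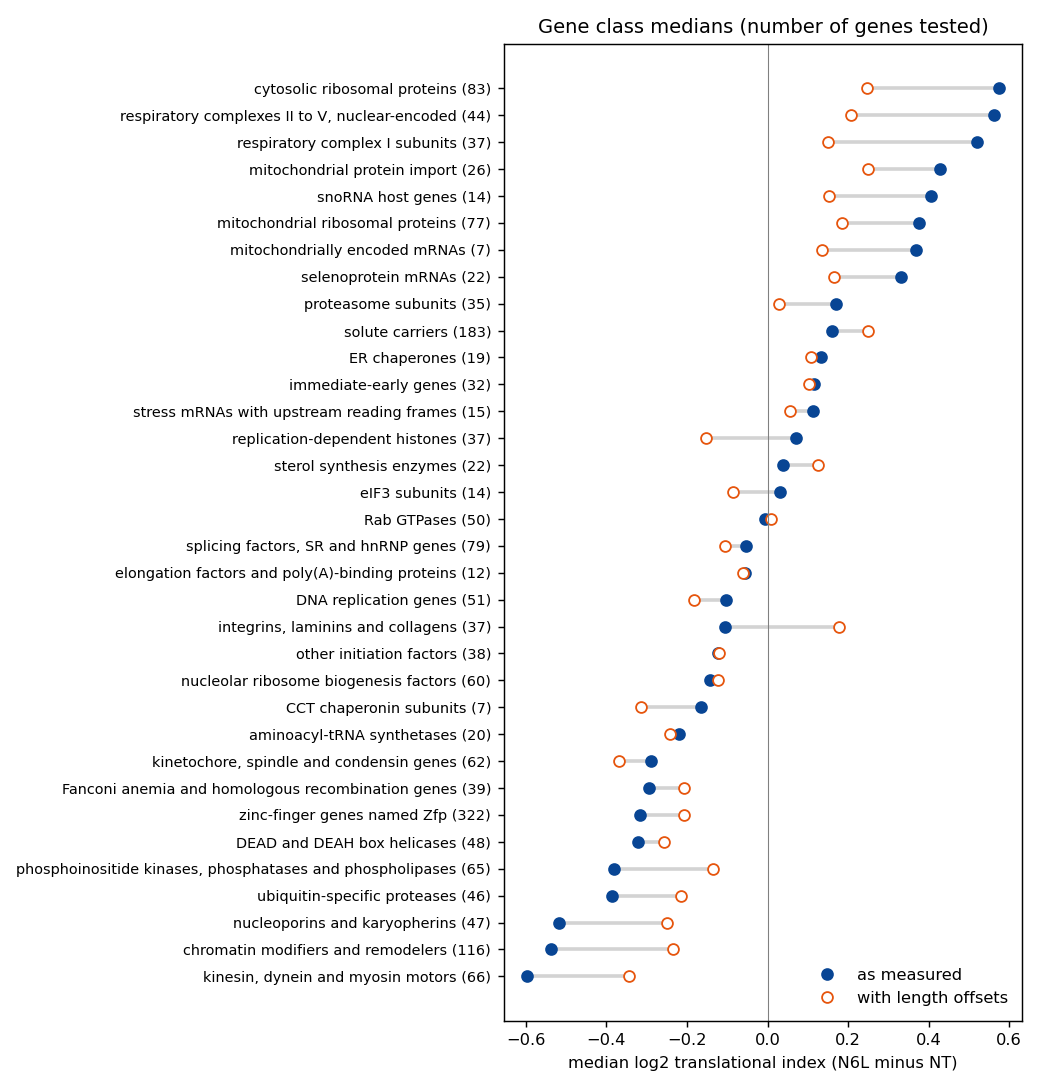
Median log2 TI (horizontal axis, N6L minus NT) of 34 gene classes (vertical axis, number of genes tested in brackets), as measured (filled) and with length offsets (open). The cytosolic ribosomal proteins stand at the top with 0.57 as measured and 0.25 with the offsets, and the motor proteins at the bottom with -0.60 and -0.34.

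The cytosolic ribosomal proteins, the protein components of the translating ribosome, had the highest class median of the TI as measured over all cultures together. Their median log2 TI was 0.57, with 82 of 83 members above 0, and 65 members (78.3%) had all N6L ratios above all NT ratios while 0 lay below. Relative to all genes, the class median of the log2 ratio was 0.31, 0.15 and 0.22 in NT cultures 1, 2 and 4. In N6L cultures 1, 2 and 3 it was 0.56, 0.72 and 1.07. All 3 N6L medians were above the 3 NT medians. Without N6L culture 3 the median TI was 0.39, below the 0.83 of the mitochondrially encoded mRNAs and the 0.47 of the snoRNA host genes. With the length offsets the median TI was 0.25, as it then was for the mitochondrial import genes and the solute carriers, with 77 of 83 members above 0 and 35 (42.2%) without overlap above, against 10.6% of all genes. The median N6L-minus-NT log2 difference of the class was -0.91 in the cytoplasm and -0.34 in the polysomes.

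Rps3, of the small subunit, had log2 ratios of 0.34, 0.31 and 0.31 in the NT and 0.64, 0.89 and 1.31 in the N6L cultures. Its cytoplasmic level was 2757, 2802 and 2853 CPM in the NT and 1880, 1467 and 1577 CPM in the N6L cultures, and its polysomal level was 3499, 3480 and 3527 CPM against 2934, 2715 and 3921 CPM, which overlapped. Rps3 had a log2 TI of 0.64 (SE 0.22, FDR 0.555 in edgeR's test, p 0.0114 before adjustment) and 0.46 with the length offsets. Rpl36, of the large subunit, had ratios of 0.29, 0.46 and 0.66 against 0.77, 1.05 and 1.71, and a TI of 0.75 as measured and 0.40 with the offsets. The highest member with at least 10 CPM was Rps27 (TI 0.92), and the lowest was Rpl4 (TI -0.04), whose ratios overlapped. Rps6 had 0.08, 0.05 and 0.44 against 0.38, 0.49 and 0.65, which overlapped, with a TI of 0.30 that was -0.00171 with the offsets. Many ribosomal protein genes have near-identical pseudogenes, and the rule by which shared reads were counted is not given in the sources. Rps27rt, a near-identical copy of Rps27, had a TI of 2.68 at a mean of 1.16 CPM and is uncertain for that reason.

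The 5′TOP tract is defined at the true first base of the mRNA, and annotated first bases were inspected because the tract is the known control element of this class. The first 24 bases of the annotated transcript (GENCODE vM21, GRCm38) are shown for 4 members with an annotated tract, for 2 abundant members whose annotated start holds none, and for Eef1a1 and Eif3a from other classes. Capitals mark the unbroken run of pyrimidines from the first base.
Rpl36, chromosome 17: CTTCCTgtcccggccgccatcgga
Rps24, chromosome 14: CTCTTTTCCTCCTCTCCagctccg
Rpl37, chromosome 15: CTCTTCCggtctctttggcctcgc
Rpl4, chromosome 9: CTTTTCCTgtgggagcagccgggt
Rps3, chromosome 7: atttcccatgaacacttgcaaggg
Rps6, chromosome 4: gagaacttagagcgctatgtgccc
Eef1a1, chromosome 9: TTCCCgagggtgggggagaacggt
Eif3a, chromosome 19: CCggctgggcgcgggcatctgctg
Among the 83 ribosomal protein genes, 8 began with C and at least 4 further pyrimidines in the transcript taken for the gene, that with the longest CDS. The starts of these transcripts therefore do not resolve the tract for most of a class that is known for it. Other annotated transcripts of the same genes were not inspected. Rpl36, Rps24, Rpl37 and Rpl4 all have an annotated tract, with TIs of 0.75, 0.48, 0.67 and -0.04.

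Over all protein-coding genes, 268 (2.21%) began in this way. Their median log2 TI was 0.06, against -0.01 for the other 11843 genes. At like length the medians were 0.40 for 68 such genes and 0.39 for the others in the shortest of 5 equal groups by length, then 0.12 and 0.15, 0.18 and -0.02, and -0.13 and -0.17 in the next groups, and -0.31 and -0.43 for 47 such genes and the others in the longest. The genes with such an annotated start had the higher median in 4 of the 5 groups and the lower one in the group with medians of 0.12 and 0.15. Since only 8 of the 83 ribosomal protein genes were among them, this does not compare mRNAs with and without a 5′TOP tract. With the length offsets the medians over all such genes and all others were 0.11 and 0.01. No test across genes was made.

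The initiation and elongation factors had medians nearer to that of all genes than the ribosomal proteins. The 14 subunits of eIF3, the scaffold that recruits the small ribosomal subunit to mRNA, had a median TI of 0.03 (0.08 without N6L culture 3), with 7 above 0, 5 without overlap above and 1 below. They ranged from Eif3k (0.55), on a transcript of 774 nt, to Eif3a (-0.98), on one of 5125 nt. The cytoplasmic level of Eif3a was 249.5, 551 and 327 CPM in the NT and 462, 655 and 709 CPM in the N6L cultures, and its polysomal level was 178, 212 and 156 CPM against 259.6, 128 and 59.1 CPM. Both overlapped between the treatments, and with the length offsets the TI was -0.77 for Eif3a and -0.48 for Eif3c. The 38 other initiation factors had a median of -0.12 (-0.01 without N6L culture 3), between Eif4ebp1 (0.59), the mTOR-regulated inhibitor of cap binding, and Eif4g3 (-0.87), a scaffold of the cap-binding complex.

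The elongation factors and poly(A)-binding proteins had a median of -0.06 over 12 genes (-0.01 without N6L culture 3), 5 of them above 0. Several of them are 5′TOP mRNAs, yet their TIs differed. Tpt1 had ratios of -0.05, -0.30 and -0.13 in the NT and 0.23, 0.34 and 0.50 in the N6L cultures (TI 0.51), without overlap. Eef1a1, which delivers aminoacyl-tRNA to the ribosome, had 0.15, 0.03 and 0.06 against -0.00, -0.10 and -0.27 (TI -0.20), without overlap in the other direction. Eef2, the translocase, had 0.28, 0.35 and 0.15 against 0.05, 0.22 and 0.56, and Pabpc1 had -0.65, -0.94 and -1.15 against -0.77, -0.83 and -1.59, and both overlapped. Abce1, which recycles ribosomes, had the lowest TI (-0.54). The 20 aminoacyl-tRNA synthetases had a median of -0.22, one of -0.24 with the length offsets and one of -0.14 without N6L culture 3, from Sars (0.30) to Eprs (-0.96).

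The 60 nucleolar ribosome biogenesis factors had a median TI of -0.14 (-0.02 without N6L culture 3), with 10 members without overlap above and 12 below. Ncl, which encodes the target of N6L, had log2 ratios of -0.14, -0.94 and -0.68 in the NT and -0.54, -1.44 and -2.45 in the N6L cultures, which overlapped (TI -0.69, SE 0.44, FDR 0.559 in edgeR's test, p 0.141 before adjustment). Its cytoplasmic level was 974, 1556 and 1477 CPM in NT and 1157, 1297 and 1261 CPM in N6L cultures, and its polysomal level was 885, 813 and 923 CPM in NT and 798, 478 and 231 CPM in N6L cultures. The polysomal values of Ncl did not overlap, unlike the cytoplasmic ones. Npm1 (TI -0.14) overlapped, and Fbl, the methyltransferase of box C/D snoRNPs, had 0.25, 0.35 and 0.12 against 0.46, 0.43 and 0.67 (TI 0.30). Imp3 (0.79, 924 nt) and Utp20 (-1.06, 8821 nt), both of the small-subunit processome, stood at the ends of the class. The 14 snoRNA host genes, spliced RNAs whose introns carry snoRNAs, had a median of 0.41. It was 0.15 with the length offsets, 0.29 with GC content also in them and, as measured without NT culture 1, 0.61.

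Classes of nuclear-encoded mitochondrial proteins also had high medians. The 37 subunits of respiratory complex I had a median of 0.52, with 35 above 0 and 26 (70.3%) without overlap above. Their class median of the log2 ratio, relative to all genes, was 0.48, 0.29 and 0.31 in the NT cultures. In the N6L cultures it was 0.63, 0.73 and 1.21. The 44 subunits of complexes II to V had 0.56 (32 without overlap above), the 77 mitochondrial ribosomal proteins 0.38 (49 above), and the 26 mitochondrial import genes 0.43 (13 above), with 0 members below in each of these classes. Median transcripts were 875, 823.5, 1316 and 1571 nt long. With the length offsets the medians were 0.15, 0.21, 0.19 and 0.25, so that the import genes, the longest of them, then had the highest. Without N6L culture 3 they were 0.31, 0.36, 0.26 and 0.23. Cox8a (0.99) of complex IV, Romo1 (0.92), Mrps24 (0.88) and Ndufb11 (0.72) were the highest members with at least 10 CPM, and Ndufs1 (-0.62), a core subunit of complex I with a transcript of 2661 nt, was the lowest among them.

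The 7 tested mRNAs of the mitochondrial genome are translated inside mitochondria and not by cytoplasmic polysomes. Their median log2 ratio, relative to all genes, was between -1.83 and -3.07 in the 6 cultures, far below that of other classes. Their median TI was 0.37, and it was 0.83 without N6L culture 3 and 0.68 without NT culture 1. mt-Co1 had -1.81, -2.30 and -1.89 in the NT and -1.91, -2.34 and -2.61 in the N6L cultures, a TI of -0.21 with overlap. Over all cultures, the median TI of these 7 mRNAs was close to the 0.38 of the mitochondrial ribosomal proteins. With the length offsets the medians of these 2 classes were 0.14 and 0.19, and with a term for the culture added they were 0.05 and 0.18. With GC content also in the offsets, without that term, the order was reversed, at 0.23 and 0.13. The part of the lower mitochondrial share of the N6L cytoplasmic libraries, given above, in these values was not tested.

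Among genes of protein folding and turnover, the 35 proteasome subunits had a median TI of 0.17. It was 0.03 with the length offsets and -0.02 with GC content also in them. They ranged from Psmb10 (0.75) of the immunoproteasome to Psmd1 (-0.79), a large subunit of the regulatory particle. The 7 subunits of the CCT chaperonin, which folds actin and tubulin, had -0.17, -0.32 with the offsets and -0.05 without N6L culture 3. The 19 ER chaperones had 0.13 (0.21 without N6L culture 3 and 0.04 without N6L culture 1), with Ppib, a peptidyl-prolyl isomerase, at the top (0.09, 0.08 and -0.03 in the NT and 0.47, 0.96 and 1.05 in the N6L cultures). The 46 ubiquitin-specific proteases had -0.39 as measured, -0.22 with the offsets and -0.24 without N6L culture 3, with 21 members (45.7%) without overlap below and 0 above. The class median of the log2 ratio of these proteases, relative to all genes, was -0.19, -0.28 and -0.14 in the NT cultures. In the N6L cultures it was -0.37, -0.51 and -0.95.

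The classes of stress and signalling lay on both sides of the median of all genes. The 15 stress mRNAs with upstream reading frames had a median TI of 0.11, and 0.06 without N6L culture 3. The loading of some of them, such as Atf4, is known to respond to phosphorylation of eIF2, but not that of all. Atf4, the best known of them, had ratios of 0.29, 0.35 and 0.40 in the NT and 0.36, 0.62 and 0.85 in the N6L cultures, which overlapped (TI 0.29, and 0.08 with the offsets). The 32 immediate-early genes had a median of 0.11 (-0.02 without NT culture 1), beside a median log2 difference of 1.25 in the cytoplasm and 1.37 in the polysomes, so that their levels in both fractions were displaced alike. Egr3 had the lowest TI of them (-0.88), with 0.15, 0.38 and 0.66 against -0.24, -0.23 and -0.94, and Ier5l the highest (1.00). The NT levels of Egr3 were only 0.45 to 1.95 CPM in the cytoplasm and 0.75 to 2.55 CPM in the polysomes. In the N6L cultures they were 23.7 to 29.0 and 15.1 to 21.2 CPM. Egr3 thus reached the mean of 10 CPM through the N6L cultures alone, and its NT ratios and TI are uncertain. The 22 selenoprotein mRNAs had 0.33 and, with the offsets, 0.16, which was 0.06 with GC content also in the offsets. The 50 Rab GTPases had -0.01, and between -0.02 and 0.09 without single cultures, with 5 members without overlap above and 5 below. The 65 phosphoinositide kinases, phosphatases and phospholipases had -0.38, with 25 (38.5%) without overlap below and 1 above, -0.13 with the offsets and -0.23 without N6L culture 3.

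Myc had log2 ratios of -0.15, -0.04 and -0.29 in the NT and -0.05, -0.05 and -0.52 in the N6L cultures, a TI of -0.06 with overlap. Mtor, the kinase that controls 5′TOP loading, had -0.40, 0.04 and -0.09 against -0.65, -0.82 and -1.09 (TI -0.69), and Larp1 had -0.00, -0.19 and -0.28 against -0.53, -0.66 and -1.11 (TI -0.57). Both lay without overlap below, and both TIs were -0.17 with the length offsets. Eif4ebp1 had 0.63, 0.42 and 0.48 against 0.60, 1.00 and 1.54, which overlapped in N6L culture 1. Of the mRNAs often used as references, Gapdh had 0.09, 0.21 and 0.23 against 0.35, 0.85 and 0.96 (TI 0.54) without overlap, and Actb had -0.05, 0.12 and 0.01 against 0.04, 0.32 and 0.40 (TI 0.24) with overlap. Malat1, a non-coding RNA known from the nucleus, had -0.28, -1.44 and -0.47 against -0.23, -1.08 and -1.99.

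In all 3 classes of membrane and matrix genes, the offsets moved the median TI up. The 183 solute carriers, transporters of the plasma and organelle membranes, had 0.16 as measured, 0.25 with the offsets and, as measured without N6L culture 3, 0.10, at a median transcript length of 3260 nt. With the offsets 144 of them were above 0, and 42 (23%) lay without overlap above and 5 (2.73%) below, against 10.6% and 8.8% of all genes. The 37 integrins, laminins and collagens had -0.11 as measured and 0.18 with the offsets, at a median length of 5394 nt, the reverse of their sign. With GC content also in the offsets this median was 0.03, and as measured without NT culture 4 it was 0.01. Their class median of the log2 ratio, relative to all genes, was -0.50, -0.42 and -0.34 in the NT cultures. It was -0.51, -0.46 and -0.47 in the N6L cultures, which overlapped. The 22 sterol synthesis enzymes had a median of 0.04 as measured (0.08 without N6L culture 3) and 0.12 with the offsets, beside a median log2 difference of 1.06 in the cytoplasm and 1.14 in the polysomes.

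Classes of cell division and the cytoskeleton had medians below that of all genes. The 66 kinesin, dynein and myosin motors had the lowest median of all classes as measured, -0.60, with 30 (45.5%) without overlap below and 3 above. Their median log2 ratio, relative to all genes, was -0.09, -0.07 and -0.00187 in the NT and -0.38, -0.64 and -1.10 in the N6L cultures. With the length offsets the median TI was -0.34, and as measured without N6L culture 3 it was -0.41. Myh9, the heavy chain of non-muscle myosin, had -0.62, -0.15 and -0.38 against -0.82, -2.36 and -1.93 (TI -1.13), and the short light chain gene Dynlt1f had a TI of 0.57. The 62 kinetochore, spindle and condensin genes had -0.29, and -0.37 with the offsets, at a median length of 2892 nt, close to that of all protein-coding genes, 2948 nt. Cenpf, of 11130 nt, had the lowest TI among them (-1.17) and overlapped in N6L culture 1. As many kinetochore members lay without overlap above (6) as below (6). In N6L culture 1 the class median of the ratio relative to all genes (-0.10) was within the NT range (-0.21 to -0.02). The median TI was -0.14 without N6L culture 3.

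The 51 DNA replication genes had -0.10 (-0.02 without N6L culture 3), from Pold4 (0.63) to Top2a (-0.97), and the 39 Fanconi anemia and homologous recombination genes had -0.30 as measured and -0.21 with the offsets, from Fancf (0.64), of 1691 nt, to Atm (-1.56), of 9787 nt. Among nuclear genes, the 47 nucleoporins and karyopherins had -0.52, with 20 (42.6%) without overlap below and 0 above, -0.25 with the offsets and -0.27 without N6L culture 3. The 116 chromatin modifiers and remodelers had -0.54, with 58 below and 1 above, -0.24 with the offsets and -0.36 without N6L culture 3. Relative to all genes, their median log2 ratio was tightly grouped at -0.22, -0.21 and -0.19 in the NT cultures. It was -0.51, -0.66 and -1.16 in the N6L cultures. Bptf, a remodeler subunit on a transcript of 12036 nt, had -0.57, -0.77 and -0.31 against -1.19, -1.92 and -2.94.

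The 322 zinc-finger genes named Zfp had a median TI of -0.32, and -0.21 with the offsets, the 48 DEAD and DEAH box helicases -0.32 and -0.26, and the 79 splicing factors, SR and hnRNP genes -0.05 and -0.10. As measured without N6L culture 3 these medians were -0.17, -0.17 and -0.01, and that of the Zfp genes was -0.16 without NT culture 4. Within the splicing genes, Sf3b5 (0.80) and Sf3b1 (-0.81), a small and a large subunit of the same complex, stood at the ends. The 37 replication-dependent histones, whose mRNAs end in a stem-loop instead of a poly(A) tail and are poorly captured by oligo(dT), had 0.07 and, with the offsets, -0.15. This median was -0.04 without NT culture 2, 0.41 without NT culture 4 and 0.55 over members with at least 10 CPM, so that its sign and size are not fixed by these data.

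**Figure D5:**
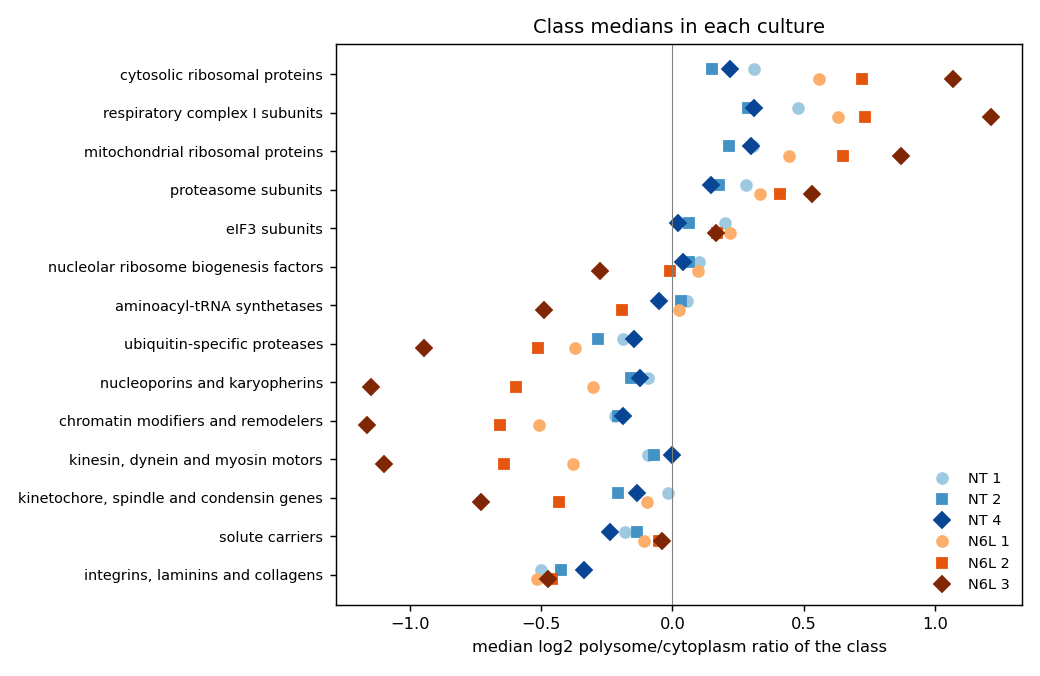
Median log2 polysome-to-cytoplasm ratio (horizontal axis) of 14 gene classes (vertical axis) in each of the 3 NT (blue) and 3 N6L cultures (orange to brown). Each value is the class median minus the median of all genes in that culture. The N6L medians of the ribosomal proteins (0.56 to 1.07) and of the chromatin modifiers (-0.51 to -1.16) lie outside the NT medians, those of the matrix genes overlap them, and N6L culture 3 is farthest from the NT cultures in most classes shown.

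By gene type, the median log2 TI was -0.01 for the 12111 protein-coding genes, 0.19 for 304 lincRNAs, 0.24 for 298 antisense genes, 0.26 for 181 processed transcripts and 0.11 for 612 processed pseudogenes. These other gene types had median lengths of 1600.5, 1358, 1540 and 690.5 nt, and with the length offsets the medians were 0.01, 0.06, 0.03 and -0.18. The sources do not say whether counting by the authors used the strand, and counts of antisense genes and of the genes they overlap may be mixed.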

How the data were processed

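RNA of cytoplasmic and pooled polysomal fractions was sequenced with a stranded poly(A) kit. Per the labels, the authors used bcl2fastq 2.18.0.12, STAR and HTSeq 0.5.3 on build mm10, and what they deposited are raw counts per gene, without normalization. Which annotation and counting options they chose (strand, reads with several matches) is not given in the sources used here. There were 4 files for each of 12 libraries. Technical replicates differed by little more than sampling noise and were summed. The dose comes from the methods of the study.

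After filterByExpr and TMM scaling, edgeR 4.0.16 was fitted (R 4.3.3, glmQLFit, 1 mean per fraction and treatment). The TI was 1 contrast, with Benjamini-Hochberg adjustment and a limit of 0.05. Per-culture ratios are log2 CPM differences with a prior count of 2, which shrinks low genes. Length, GC content and symbols came from GENCODE vM21 (50376 of 50600 genes matched), using the transcript with the longest CDS. Length offsets were natural splines with 5 degrees of freedom, fitted per library. DESeq2 1.42.0 and limma 3.58.1 were alternatives. The scripts were tested on simulated data. With 3 cultures against 3, the exact permutation test allows no p below 0.1.

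The fractions of a culture come from one lysate and are therefore paired. Deviations of the 2 fractions from their group means correlated by 0.364, 0.452 and 0.645 in NT cultures 1, 2 and 4. In N6L cultures 1, 2 and 3 these correlations were 0.0368, 0.199 and 0.229. The culture block was an alternative.

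Genes were named by rule. The rule took the 8 highest and 8 lowest TIs among genes with at least 10 CPM and no overlap, the 5 highest and 5 lowest with length offsets, the highest and lowest member of each class, and 21 fixed names. Rps24, Rpl37 and Rps27rt were named in addition, after their values were seen. The classes, members and lists were chosen with earlier results of these data known. The authors' gene lists were not used.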

Additional observations from a re-analysis of the deposited data

Results flagged for a closer look

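For 7 of the named genes the log2 polysome-to-cytoplasm ratio had one sign in all NT cultures and the opposite sign in all N6L cultures. The ratio was positive in NT and negative in N6L cultures for Ccdc88c (TI -1.44), Ston1 (TI -1.31), Egr3 (TI -0.88), Slc25a30 (TI -0.85), the solute carrier with the lowest TI at 10 CPM or more, and Eef1a1 (TI -0.20). It was negative in NT and positive in N6L cultures for Snhg3 (TI 0.86), the snoRNA host gene with the highest TI at 10 CPM or more, and Tpt1 (TI 0.51). This difference in sign was not tested in itself, the TI of each missed the FDR limit (0.555 to 0.738 in edgeR's test), and for Eef1a1 N6L culture 1 lay at -0.00. Egr3 was at no more than 2.55 CPM in any NT library, so the sign of its NT ratios is uncertain. Of all 13889 genes tested, 366 (2.64%) had this layout, 228 of them positive in NT cultures and 138 negative.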

How the results depend on the processing

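The number of genes past an FDR of 0.05 was 0 in every alternative except without a filter on low counts (114 genes, of which 15 had a TI above 0 and 99 one below 0, all 114 among the genes of the filtered fit) and without single cultures (0 to 1). The number with an unadjusted p under 0.05 moved most. It was 2250 without a filter, 2996 with the replicate block, 703 with length offsets, 1821 with the replicate block and length offsets, 2231 with the block and length and GC offsets (added after the data were seen), 2467 in limma on the 6 ratios, and 403 to 2546 without single cultures (480 without NT culture 1, 694 without NT culture 2, 2546, 403 and 417 without N6L cultures 1, 2 and 3). Genes without overlap below numbered 1222 with length offsets. The length slope difference ran from -0.37 to -0.19 without single cultures and from -0.32 to -0.21 in the other alternatives, and the number of class medians above that of all genes was 15 to 17 in all of them. Single class medians moved by more than the spread between cultures in 72 of 612 comparisons, and named genes in 131 of 1647. Of the 28 class medians with a size of at least 0.1, leaving out a culture moved 19 by over 1.5 times for N6L culture 3, 9 for N6L culture 1, 3 for N6L culture 2 and 5, 3 and 4 for NT cultures 1, 2 and 4. The sign turned for the immediate-early genes without NT culture 1 (-0.02) and for the integrins, laminins and collagens without NT culture 4 (0.01). The cause of these moves was not tested. The block and the offsets gave no length slope, since the ratio is paired already and the offsets remove the slope by construction. Class medians with a prior count of 0.5 were taken from the ratios. With 3 cultures a treatment, gene-level differences of the size seen here were not resolved. The N6L cultures differed from each other more than the NT cultures in how widely their ratios were spread over genes (SD 0.258 against 0.0148). Their ratios nevertheless correlated more closely across genes, by 0.574 to 0.853 between N6L cultures against 0.424 to 0.535 between NT cultures.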
